A study of Mus musculus with 6 samples.

Results

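Tbx2, Tbx3, Tbx4 and Tbx5 are 4 T-box genes of the limb, and the accessible chromatin around them was described here in distal mouse forelimb buds with and without HOX13. A peak was assigned to these loci if its midpoint lay inside 1 of the genes or within 200 kb of its start, and each peak was counted once, for the nearest of the 4 genes. This gave 82 of the 61954 peaks of the deposited table, which is 0.132%: 27 peaks at Tbx2, 14 at Tbx3, 14 at Tbx4 and 27 at Tbx5. ATAC-seq, in which the transposase Tn5 cuts open chromatin and tags it for sequencing, was performed on forelimb buds dissected at E11.5 from embryos of a mixed C57Bl/6 x 129 background. The 2 wild-type (WT) libraries and the 2 Hox13-/- libraries each came from 50000 cells of the distal buds of a single embryo, left and right buds pooled. In Hox13-/- embryos both Hoxa13 (allele Hoxa13Str) and Hoxd13 (allele Hoxd13lacZ) are inactivated throughout the embryo, and HOX13 denotes the proteins of both genes. The other 2 libraries of the series, from proximal buds, were not analysed here.

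T-box genes encode transcription factors that bind DNA through a shared T-box domain. Tbx5 is expressed in the forelimb bud and Tbx4 mainly in the hindlimb bud, where each takes part in Fgf10 expression and limb outgrowth. Tbx2 and Tbx3 encode repressors expressed at the anterior and posterior margins of the limb bud, where they take part in digit patterning. The genes lie as linked neighbours, Tbx3 with Tbx5 on chromosome 5 and Tbx2 with Tbx4 on chromosome 11, an arrangement inherited from an ancestral gene cluster. All 4 are transcribed from the plus strand. The starts of Tbx3 and Tbx5 are 162.0 kb apart and those of Tbx2 and Tbx4 53.9 kb, so that 63 of the 82 peaks lay within 200 kb of 2 of the starts. Assignment to the nearest gene is therefore a label of position, not of the gene that a peak serves.

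Sequences are shown first for the lower and the higher peak with the smallest p at each gene, since the results turn on them. At Tbx4 the lower peak with the smallest p, at 10.5 kb, lies over an exon and is not printed, and the stretch before it and the lower peak with the next smallest p, at 40.4 kb, stand in its place. They come from GRCm38 (the mm10 build) and are given on the plus strand, and capitals mark a match to the HOX13 motif (CAATAAA or TCGTAAA, either strand). Positions in kb are distances of a peak's midpoint from the start of its gene, negative upstream. The first sequence is the 250 bases before an internal start of Tbx4, taken from the RefSeq promoter table, of which 171 lie in the Tbx4 peak at 10.2 kb and the rest almost all in no peak. The peaks of the next 3 lines, and the Tbx4 peak at 10.2 kb, were less accessible in Hox13-/-.
Tbx4 before the internal start, chr11:85896515-85896764: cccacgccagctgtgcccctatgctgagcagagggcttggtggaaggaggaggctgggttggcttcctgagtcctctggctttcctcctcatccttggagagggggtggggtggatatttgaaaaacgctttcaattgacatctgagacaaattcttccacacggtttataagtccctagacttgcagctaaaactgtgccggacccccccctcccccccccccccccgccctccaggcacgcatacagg
Tbx4 40.4 kb, middle, chr11:85926719-85927018: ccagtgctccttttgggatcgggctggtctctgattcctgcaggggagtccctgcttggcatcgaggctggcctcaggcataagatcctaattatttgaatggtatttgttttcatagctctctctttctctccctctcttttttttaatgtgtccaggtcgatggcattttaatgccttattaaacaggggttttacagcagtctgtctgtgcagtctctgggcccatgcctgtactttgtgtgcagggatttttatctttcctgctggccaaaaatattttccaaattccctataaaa
Tbx5 -9.8 kb, chr5:119822739-119823005: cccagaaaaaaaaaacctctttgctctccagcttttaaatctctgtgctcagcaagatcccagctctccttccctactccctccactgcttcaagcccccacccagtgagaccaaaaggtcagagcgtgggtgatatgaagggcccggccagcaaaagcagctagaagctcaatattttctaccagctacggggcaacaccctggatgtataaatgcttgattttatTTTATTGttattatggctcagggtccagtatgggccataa
Tbx3 -183.4 kb, chr5:119487187-119487339: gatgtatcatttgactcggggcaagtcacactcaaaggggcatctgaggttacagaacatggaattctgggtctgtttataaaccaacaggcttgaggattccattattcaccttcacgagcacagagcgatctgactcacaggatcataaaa
The next 4 were more accessible in Hox13-/-. The first 3 of them hold a match to the HOX13 motif, and the fourth holds none.
Tbx3 -116.9 kb, middle, chr5:119553635-119553934: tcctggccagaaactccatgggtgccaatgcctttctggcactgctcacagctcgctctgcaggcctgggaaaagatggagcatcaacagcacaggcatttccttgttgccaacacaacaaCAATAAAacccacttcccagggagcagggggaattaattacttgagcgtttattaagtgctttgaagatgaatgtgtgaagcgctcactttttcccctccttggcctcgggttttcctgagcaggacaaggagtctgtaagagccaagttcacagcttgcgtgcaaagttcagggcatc
Tbx2 -123.1 kb, middle, chr11:85709280-85709579: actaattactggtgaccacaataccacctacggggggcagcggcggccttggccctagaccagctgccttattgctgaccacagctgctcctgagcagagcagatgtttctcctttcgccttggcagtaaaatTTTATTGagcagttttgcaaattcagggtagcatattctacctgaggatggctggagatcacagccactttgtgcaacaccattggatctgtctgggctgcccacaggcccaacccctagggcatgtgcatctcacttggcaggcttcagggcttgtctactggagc
Tbx4 -10.3 kb, chr11:85875989-85876223: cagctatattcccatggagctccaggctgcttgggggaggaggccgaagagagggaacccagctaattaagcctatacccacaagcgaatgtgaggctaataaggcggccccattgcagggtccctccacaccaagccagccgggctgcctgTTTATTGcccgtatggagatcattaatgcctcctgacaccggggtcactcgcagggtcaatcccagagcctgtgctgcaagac
Tbx5 -40.9 kb, middle, chr5:119791666-119791965: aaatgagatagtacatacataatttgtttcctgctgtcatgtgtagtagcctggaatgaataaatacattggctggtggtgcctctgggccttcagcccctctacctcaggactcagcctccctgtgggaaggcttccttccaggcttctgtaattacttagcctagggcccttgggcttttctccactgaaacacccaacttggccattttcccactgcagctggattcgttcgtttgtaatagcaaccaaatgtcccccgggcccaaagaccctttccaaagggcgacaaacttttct

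To assess accessibility at these loci without HOX13, the rLog values of the genotypes were compared. The rLog is a regularized log2 of the read number in a peak, scaled for library size and shrunk towards the mean of the peak, so that a difference of 1 stands for a fold change of 2 and weak peaks are understated. Of the 82 peaks, 7 were lower in Hox13-/- (8.54%) and 14 higher (17.1%), with calls made where the adjusted p was under 0.05 (limma, Benjamini-Hochberg over all peaks). Over all peaks, 8.31% were lower and 11.4% were higher. The share of lower peaks at the 4 loci was thus near the background. The lower peaks fell mostly at Tbx4, with 4 of its 14 peaks, and the others were 2 at Tbx5 and 1 at Tbx3. The higher peaks were 6 at Tbx2, 4 at Tbx5, 3 at Tbx3 and 1 at Tbx4. Whether the genes differ in these counts was not tested. Tbx2 had 0 lower peaks with limma. By an unadjusted p under 0.05 it had 4 of 27, against 9229 of all 61954 peaks. It had 1 lower peak with median centring or quantile normalization (at 9.6 kb) or with a GC correction (at -92.9 kb).

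**Figure D1:**
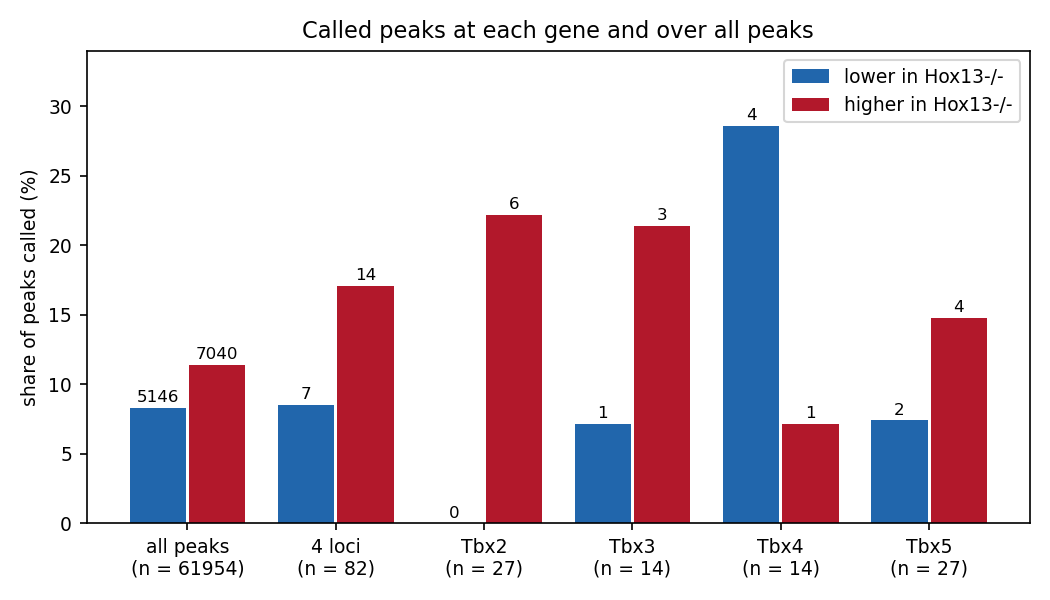
Share of peaks called lower or higher in Hox13-/- (percent, vertical axis) over all peaks, at the 4 loci together and at each gene, with the number of called peaks above each bar and no error bars. Tbx4 has the largest share of lower peaks in the plot, 28.6%, and Tbx2 the largest share of higher peaks, 22.2%. Close neighbours were counted separately, as at Tbx4 10.2 and 10.5 kb and at Tbx2 -98.3, -98.0 and -97.3 kb.

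The changes were small. None of the 82 peaks passed a fold change of 2, which 0.537% of all peaks did. An unadjusted p under 0.05 in limma was seen at 31 of the 82, against 19709 of all 61954 peaks. The median difference (Hox13-/- minus WT) was 0.02 at the 4 loci and -0.01 over all peaks, and by gene it was 0.03 at Tbx2, 0.02 at Tbx3, -0.01 at Tbx4 and 0.06 at Tbx5. Both WT libraries were above both Hox13-/- libraries in 22 peaks (26.8%), where the share over all peaks was 29.6%. The opposite order was seen in 26 peaks (31.7%), against 29.7% of all peaks. All 21 called peaks were among these, with no overlap between the genotypes. Over all peaks, this held for 98.4% of the lower and 99.6% of the higher peaks, so the separation adds little to a call. Other scalings changed the balance of the calls: there were 10 lower and 10 higher peaks with median centring, 9 and 10 with quantile normalization, 8 and 10 with cyclic loess, and 9 and 11 with a GC correction. The balance over all peaks also moved. Of all 61954 peaks, 5146 were lower and 7040 higher in the main fit, and 6811 and 6017 with median centring. The numbers were 5375 and 6365 with quantile normalization, 5017 and 6577 with cyclic loess, and 5070 and 5407 with a GC correction. Leaving out any of the libraries lowered the numbers of lower and of higher peaks, both at the 4 loci and over all peaks.

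**Figure D2:**
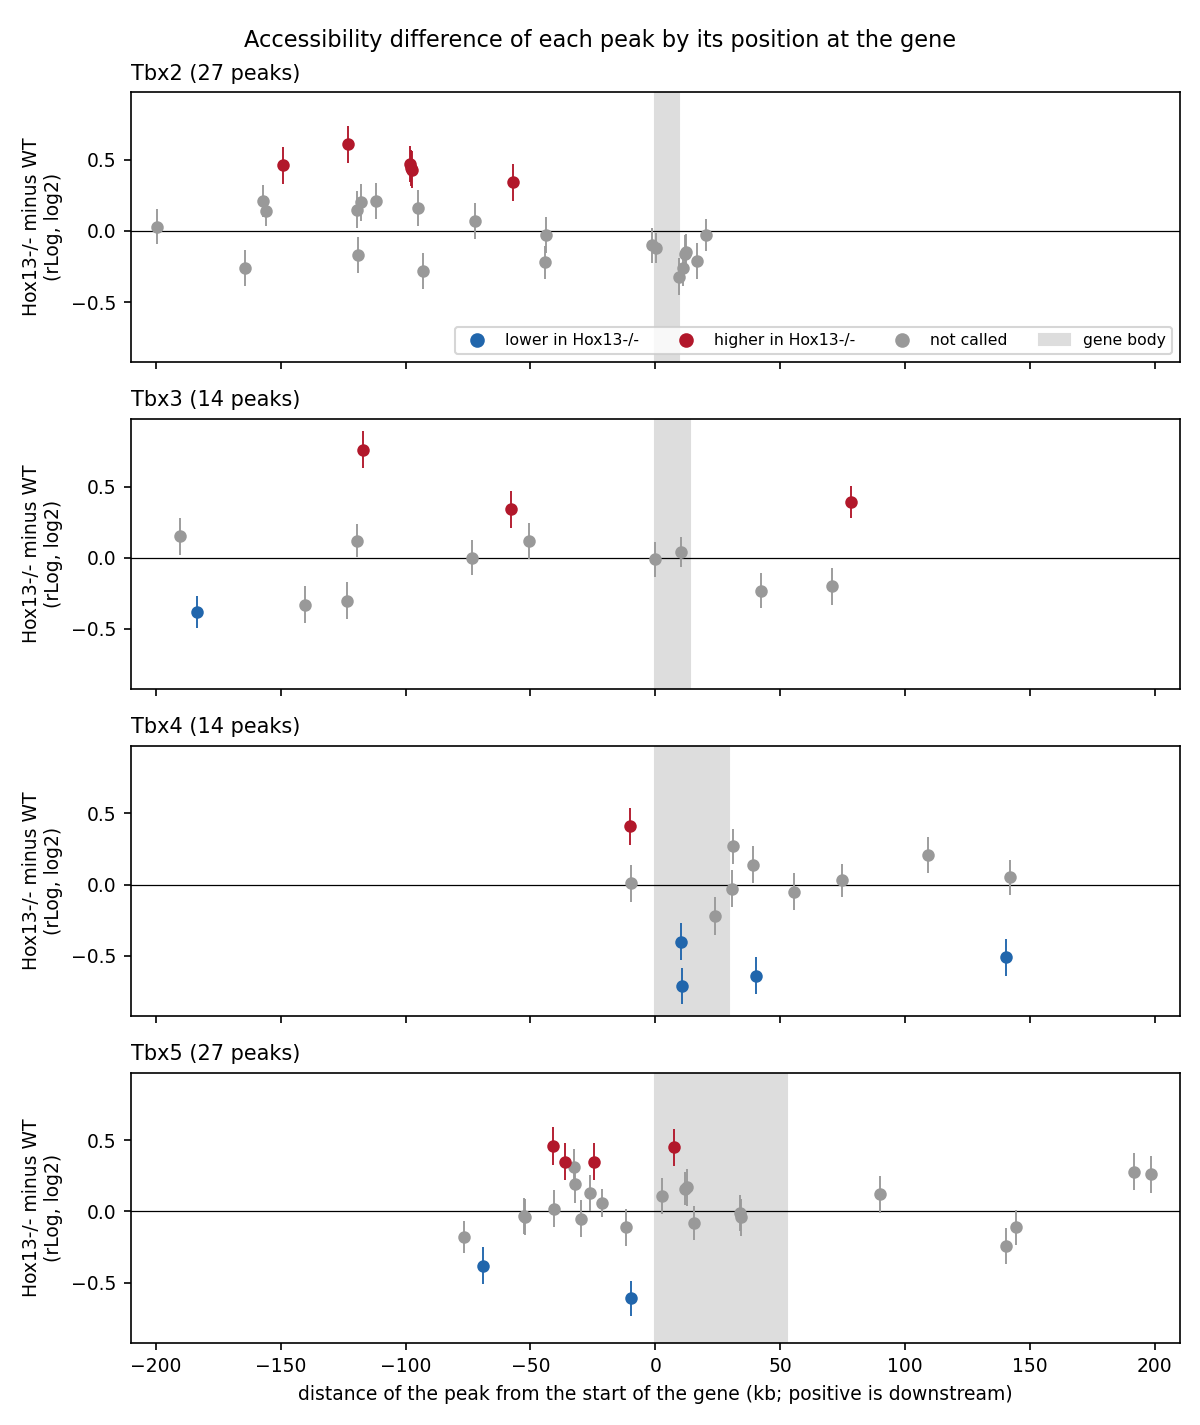
Difference in rLog (Hox13-/- minus WT, log2, vertical axis) of each of the 82 peaks against its distance from the start of its gene in kb (horizontal axis, positive downstream), with bars of 1 SE from limma and the gene body in grey. The lower peaks of Tbx4 lie inside the gene and downstream of it, and the higher peaks of Tbx2 all lie upstream. The starts of these genes are 53.9 kb apart. Assignment to the nearest gene therefore leaves little room for peaks downstream of Tbx2 or upstream of Tbx4.

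Several measures of the whole libraries bear on these values. The table gives rLog and no read numbers, and the depth of a single peak is therefore unknown. Between replicates the root mean square difference over all peaks was 0.180 in WT and 0.176 in Hox13-/-. Bulk ATAC-seq cannot tell fewer cells with an open site from less opening per cell. Limb mesenchyme markers had a start-site peak at 5 of 6 genes, of which Twist1 was lower in Hox13-/- (-0.40, adjusted p = 0.0143 in limma) and the others were not called; their summed rLog was 30.96 and 30.85 in WT and 31.17 and 31.33 in Hox13-/-. Markers of other cells had start-site peaks at 3 of 6 ectoderm genes (summed rLog 9.18 to 9.73 in WT, 9.19 to 9.20 in Hox13-/-), 2 of 6 endothelial genes (12.30 to 12.49, and 12.18 to 12.56) and 2 of 5 muscle precursor genes (8.71 to 8.79, and 8.45 to 8.82). A further start-site peak was present at 1 of 6 blood genes (3.10 to 3.16, and 2.98 to 3.02) and at 1 of 4 neural crest genes (3.28 to 3.41, and 3.24 to 3.36). None of these was called, and defining genes such as Trp63, Pecam1, Cdh5, Pax3, Gata1 and Sox10 had no such peak. The part of cell composition in the differences below was not tested. At the targeted genes, the start-site peak of Hoxd13 had rLog 4.06 and 4.17 in WT and 3.70 and 3.50 in Hox13-/- (-0.52, adjusted p = 6.08e-04 in limma), and that of Hoxa13 had 5.71 and 5.95 against 5.66 and 5.84 (-0.08, adjusted p = 0.708), which measures accessibility and not the alleles.

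Tbx4, the hindlimb gene (ENSMUSG00000000094.12, chr11:85886422-85916097), had the most lower peaks. No peak lay within 1 kb of the gene's own start. A shorter annotated transcript starts further in, at position 85896765, and 2 peaks lay at that start. The peak at 10.5 kb (chr11:85896761-85896986), which lies over the first exon of the shorter transcript, had rLog 4.35 and 4.13 in WT and 3.53 and 3.54 in Hox13-/-. Both mutant libraries were below both WT libraries by more than the replicates differed. The difference was -0.71 (SE 0.126, 95% interval -0.96 to -0.46, adjusted p = 7.99e-07 in limma), a 1.63-fold lower level on the rLog scale. Just upstream, the peak at 10.2 kb (chr11:85896464-85896685), in an intron of the longer transcripts, had 4.30 and 4.38 in WT and 3.85 and 4.03 in Hox13-/-. It was lower by a smaller amount, -0.40 (SE 0.128, adjusted p = 0.0143). The peak caller found both peaks in both WT libraries and in neither Hox13-/- library. The same pattern held for 1250 of the 5146 lower peaks of the whole set, and the caller used the same reads as the rLog.

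Downstream of Tbx4, 2 intergenic peaks were lower. The peak at 40.4 kb (chr11:85926654-85927083) had rLog 5.86 and 5.67 in WT and 5.17 and 5.09 in Hox13-/-, a difference of -0.64 (SE 0.130, adjusted p = 2.71e-05 in limma). It was 1 of the 2 strongest Tbx4 peaks in WT and was again called by the peak caller in the WT libraries only. The peak at 140.3 kb (chr11:86026632-86026907) had 5.78 and 5.47 in WT and 5.09 and 5.15 in Hox13-/-, a difference of -0.51 (SE 0.131, adjusted p = 0.00132). Upstream of the gene, the peak at -10.3 kb moved the other way. Its rLog was 4.82 and 4.84 in WT and 5.17 and 5.32 in Hox13-/-, a difference of 0.41 (SE 0.131, adjusted p = 0.0124), and it was found by the caller in the Hox13-/- libraries only. Its neighbour at -9.8 kb overlapped between the genotypes (5.53 and 5.31 in WT, 5.66 and 5.21 in Hox13-/-). So did the peak at 30.8 kb, just past the end of the gene, with 5.81 and 5.83 in WT and 5.94 and 5.64 in Hox13-/- (-0.03, adjusted p = 0.880). The calls at 10.5 and 40.4 kb held without each of the 4 libraries. That at 140.3 kb was lost without WT replicate 1 (-0.35, adjusted p = 0.132), that at 10.2 kb without WT replicate 2 or Hox13-/- replicate 1 (adjusted p up to 0.188), and that at -10.3 kb without either WT replicate or Hox13-/- replicate 2 (adjusted p up to 0.154).

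Tbx5, the forelimb gene (ENSMUSG00000018263.11, chr5:119832668-119885219), had 2 lower and 4 higher peaks among 27. The lower peaks lay upstream. At -9.8 kb, rLog was 3.94 and 4.33 in WT and 3.55 and 3.50 in Hox13-/-. The WT libraries differed from each other here by more than the mutant libraries did, but neither reached the mutant level. The difference was -0.61 (SE 0.125, adjusted p = 3.14e-05 in limma), and it was -0.41 without WT replicate 2 (adjusted p = 0.0509). This is the only lower peak of the 7 with a match to the HOX13 motif. The other lower peak, at -69.1 kb (chr5:119763443-119763666), had 4.20 and 4.18 in WT and 3.84 and 3.78 in Hox13-/-, a difference of -0.38 (SE 0.127, adjusted p = 0.0193). Its replicates were close, but p in this fit rests on a spread pooled over peaks and does not reflect that. No fit without 1 of the 4 libraries called it (differences -0.41 to -0.35).

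Between these sites lay 3 of the higher Tbx5 peaks. The peak at -40.9 kb (chr5:119791594-119792036) had rLog 5.19 and 5.14 in WT and 5.71 and 5.53 in Hox13-/-, a difference of 0.46 (SE 0.131, adjusted p = 0.00453 in limma). A peak beside it, at -40.5 kb, had 4.43 and 4.53 in WT and 4.51 and 4.50 in Hox13-/-, with a difference of 0.02. The peak at -36.0 kb (chr5:119796485-119796778) had 4.61 and 4.75 in WT and 5.11 and 4.95 in Hox13-/-, a difference of 0.35 (SE 0.131, adjusted p = 0.0412). It holds the core of a T-box site (AGGTGTG). The peak at -24.7 kb (chr5:119807801-119808207), which lies at the start of the transcript 1700021F13Rik, had 5.18 and 4.73 in WT and 5.26 and 5.36 in Hox13-/-, a difference of 0.35 (SE 0.131, adjusted p = 0.0380). WT replicate 1 was close to the mutant libraries at this peak, and the difference was 0.13 without WT replicate 2 (adjusted p = 0.650).

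Inside Tbx5, the intronic peak at 7.6 kb (chr5:119840134-119840455) was the only called peak of 7. Its rLog was 4.41 and 4.51 in WT and 5.00 and 4.81 in Hox13-/-, a difference of 0.45 (SE 0.131, adjusted p = 0.00601 in limma). All 7 peaks of the gene body had differences between -0.08 and 0.45. The strongest WT peaks of the locus, at -26.1 kb (6.01 and 6.08 in WT, 6.26 and 6.09 in Hox13-/-) and -29.8 kb (5.86 and 5.76, against 5.69 and 5.82), were not called. The call at -40.9 kb was lost without Hox13-/- replicate 1 (0.37, adjusted p = 0.118), and that at 7.6 kb without WT replicate 1 or Hox13-/- replicate 1 (adjusted p up to 0.129). The peak at -24.7 kb kept its call only without WT replicate 1, and that at -36.0 kb was called in no fit without 1 library (adjusted p 0.0609 to 0.271). Neither of these last peaks was called under every other scaling and the GC correction (adjusted p up to 0.145 and 0.0866).

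Tbx3, a repressor gene (ENSMUSG00000018604.18, chr5:119670669-119684724), had the peak with the largest difference of the 4 loci. This intergenic peak, at -116.9 kb (chr5:119553545-119554023), had rLog 5.86 and 5.72 in WT and 6.51 and 6.58 in Hox13-/-. It was also 1 of the 2 strongest Tbx3 peaks in WT away from the gene start. The difference was 0.76 (SE 0.129, 95% interval 0.50 to 1.01, adjusted p = 2.21e-07 in limma), a 1.69-fold higher level, and it lay between 0.69 and 0.83 without each of the 4 libraries. The peak at 78.2 kb (chr5:119748792-119748904) had 2.92 and 2.88 in WT and 3.39 and 3.20 in Hox13-/-, a difference of 0.39 (SE 0.114, adjusted p = 0.00592). A weaker call was made at -57.8 kb, in an intron of the antisense gene Tbx3os1, with 3.99 and 4.05 in WT and 4.36 and 4.36 in Hox13-/- (0.34, SE 0.129, adjusted p = 0.0444).

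The only lower Tbx3 peak lay at -183.4 kb (chr5:119487187-119487339), with rLog 3.34 and 3.11 in WT and 2.81 and 2.89 in Hox13-/-, a difference of -0.38 (SE 0.113, adjusted p = 0.00734 in limma). Nearby at -190.4 kb, the other strong Tbx3 peak had 5.65 and 5.92 in WT and 5.96 and 5.90 in Hox13-/- (0.15, adjusted p = 0.441). Between these and the -116.9 kb peak lay 3 peaks that were not called. At -140.4 kb (-0.33, adjusted p = 0.0591) and -123.4 kb (-0.30, adjusted p = 0.0808) both WT libraries were above both mutant libraries, and at -119.5 kb (0.12, adjusted p = 0.510) the order was the opposite. The peak at -140.4 kb was called lower with each of the other scalings and with a GC correction (differences -0.36 to -0.43, adjusted p 0.0103 to 0.0324), and that at -123.4 kb with median centring (adjusted p = 0.0457). The call at -183.4 kb was lost without WT replicate 1 or Hox13-/- replicate 1 (adjusted p up to 0.182) and that at 78.2 kb without WT replicate 2 or Hox13-/- replicate 1 (adjusted p up to 0.116). No fit without 1 library called the peak at -57.8 kb (adjusted p 0.108 to 0.217), nor did every other scaling and the GC correction (adjusted p up to 0.149).

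Tbx2, the other repressor gene (ENSMUSG00000000093.6, chr11:85832551-85841948), had higher peaks only on its upstream side. That side held 20 of its 27 peaks, since downstream peaks nearer to the start of Tbx4 were counted for Tbx4. Of the 27 peaks, 19 lay in introns of the neighbouring gene Bcas3, and all 6 higher peaks were among them. The peak at -123.1 kb (chr11:85709108-85709750) had rLog 5.49 and 5.58 in WT and 6.12 and 6.16 in Hox13-/-, a difference of 0.61 (SE 0.130, adjusted p = 6.55e-05 in limma), which is 1.52-fold on the rLog scale. At -148.9 kb (chr11:85683531-85683832), values of 4.39 and 4.54 in WT and 5.09 and 4.76 in Hox13-/- gave a difference of 0.46 (SE 0.131, adjusted p = 0.00467). The mutant libraries differed from each other at this peak by more than those of WT.

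A further 3 higher Tbx2 peaks lay side by side. They were counted as 3 peaks, though peaks this close may not vary independently. The peak at -98.3 kb (chr11:85734142-85734348) had rLog 3.69 and 3.96 in WT and 4.31 and 4.29 in Hox13-/- (0.47, SE 0.128, adjusted p = 0.00250 in limma). Its neighbour at -98.0 kb (chr11:85734410-85734622) had 3.64 and 3.65 in WT and 4.08 and 4.09 in Hox13-/- (0.44, SE 0.126, adjusted p = 0.00481). That at -97.3 kb (chr11:85735137-85735425) had 4.63 and 4.65 in WT and 5.03 and 5.11 in Hox13-/- (0.43, SE 0.131, adjusted p = 0.00830). Their differences were alike in size and their replicates close, apart from WT replicate 1 at -98.3 kb. The smallest called difference at Tbx2 was 0.34 at -56.8 kb (adjusted p = 0.0488), at the start of the transcript Bcas3os2, and this peak was called in no fit without 1 library (adjusted p 0.0935 to 0.234) and not under every other scaling and the GC correction (adjusted p up to 0.202). The calls at -123.1 and -98.0 kb held without each of the 4 libraries. That at -98.3 kb was lost without WT replicate 1 (adjusted p = 0.157), that at -148.9 kb without WT replicate 1 or Hox13-/- replicate 1 (up to 0.235), and that at -97.3 kb without WT replicate 1 or Hox13-/- replicate 2 (up to 0.0916).

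The strongest peaks of the same introns in WT were at -199.7 and -92.9 kb. The peak at -199.7 kb (chr11:85632471-85633158), with rLog 7.61 and 7.56 in WT and 7.61 and 7.62 in Hox13-/-, gave a difference of 0.03 with a 95% interval of -0.22 to 0.27. At -92.9 kb (chr11:85739394-85739961), values were 7.04 and 7.03 in WT and 6.71 and 6.81 in Hox13-/- (-0.28, adjusted p = 0.107 in limma), and with a GC correction this peak was called lower (-0.37, adjusted p = 0.0246). Downstream of Tbx2, the 6 peaks between 9.6 and 20.2 kb, grouped here after their values were seen, had differences from -0.32 to -0.03 and none was called. The largest of these was at 9.6 kb, with 6.23 and 6.02 in WT and 5.88 and 5.73 in Hox13-/- (adjusted p = 0.0636), and this peak was called lower with median centring (-0.35, adjusted p = 0.0349), with quantile normalization (-0.36, adjusted p = 0.0371) and without WT replicate 2 (-0.43, adjusted p = 0.0445). Their median GC content was 63.1%, against 49.5% for the peaks in Bcas3 and 52.1% for all peaks. With a GC correction the 6 differences ran from -0.24 to -0.07 and none was called (smallest adjusted p = 0.190).

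**Figure D3:**
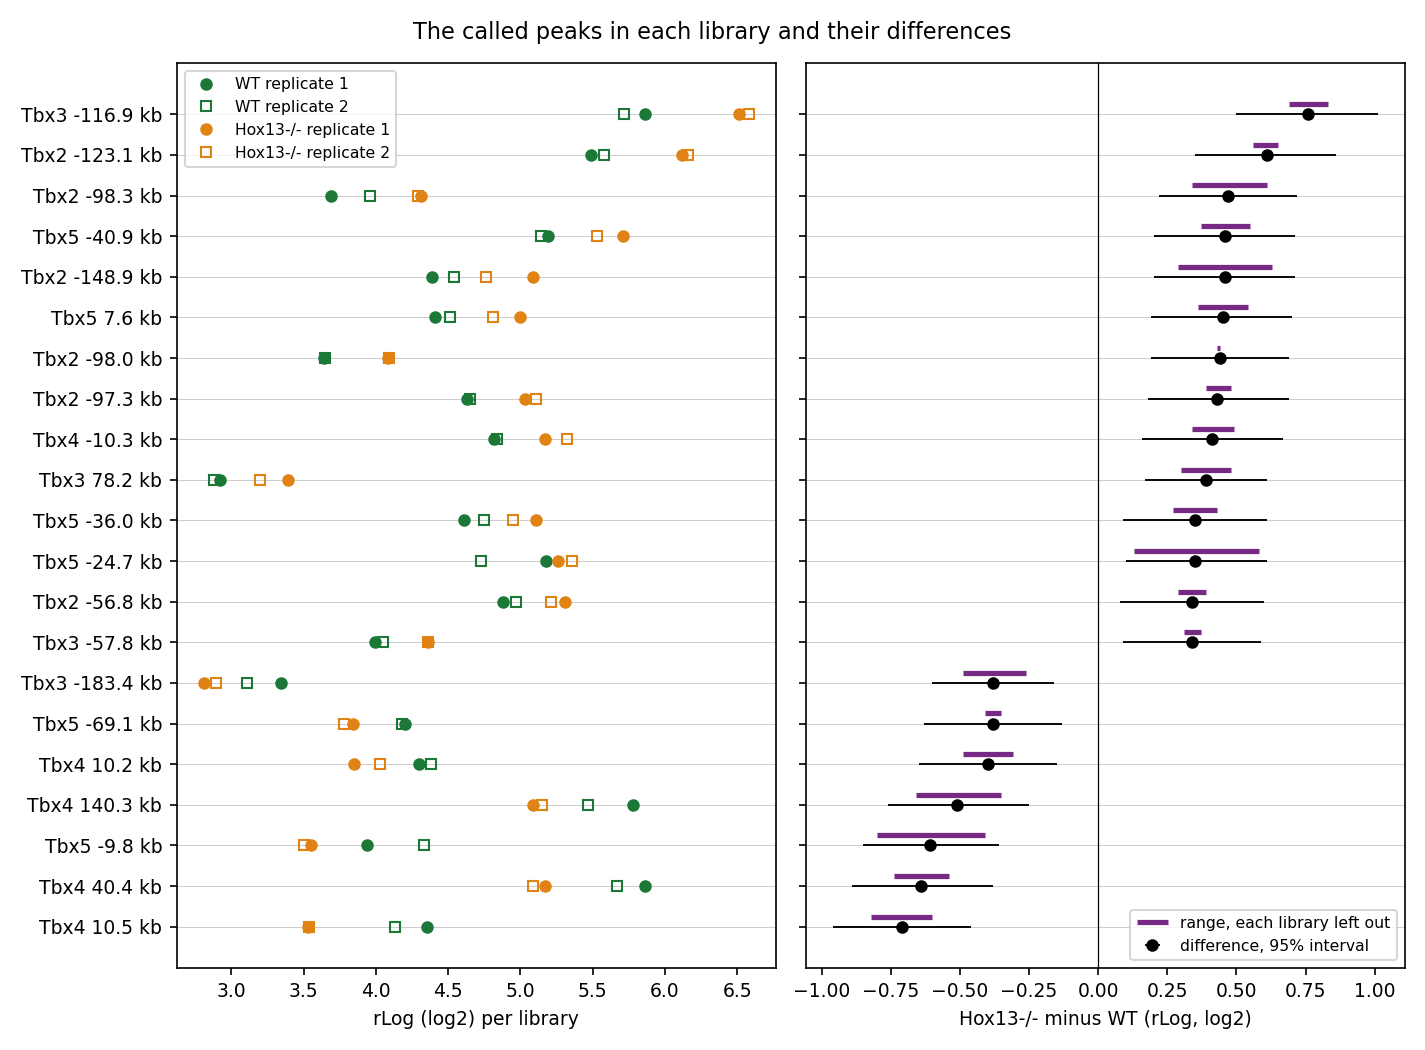
The 21 called peaks, with rLog in each of the 4 libraries on the left and the difference (Hox13-/- minus WT, log2) on the right, where black bars are 95% intervals from limma and purple bars the range of the difference when each library is left out. The differences run from -0.71 to 0.76. The genotypes do not overlap at any of these peaks, as at 98.4% of the lower and 99.6% of the higher peaks over all peaks.

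At the gene starts themselves, Tbx3 stood out by its level. Its start-site peak (chr5:119670299-119671098, 800 bp) had rLog 7.65 and 7.62 in WT and 7.47 and 7.77 in Hox13-/-, a difference of -0.01 with a 95% interval of -0.26 to 0.23. The start-site peak of Tbx2 (chr11:85832705-85832818, 114 bp) was weak, with 2.67 and 2.44 in WT and 2.44 and 2.43 in Hox13-/- (-0.12, 95% interval -0.32 to 0.08). Neither was called. Tbx4 and Tbx5 had no peak within 1 kb of the gene start, and their peaks nearest to any annotated transcript start were, as chosen after the values were seen, the Tbx4 peak at 10.5 kb described above and a Tbx5 peak at 2.5 kb (chr5:119835085-119835247). The latter, in an exon, had 3.78 and 3.84 in WT and 4.06 and 3.78 in Hox13-/- (0.11, adjusted p = 0.567 in limma).

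To compare levels between genes, the log2 of the peak length in kb was subtracted from rLog. On this scale the WT levels were 7.97 and 7.94 at Tbx3, 6.39 and 6.46 at Tbx5, 6.50 and 6.28 at Tbx4 and 5.80 and 5.58 at Tbx2. Tbx5 and Tbx4 did not differ beyond the spread of their libraries, whereas Tbx3 was above and Tbx2 below both. The peak caller found the Tbx3 peak in all 4 libraries and the Tbx4 peak in both WT libraries only. It found the Tbx2 peak in 1 WT library only and the Tbx5 peak in both Hox13-/- libraries only. The WT order of Tbx2 and Tbx5 thus rests on peaks not found in both WT libraries. In Hox13-/- the levels were 7.79 and 8.09 at Tbx3, 6.67 and 6.40 at Tbx5, 5.67 and 5.69 at Tbx4 and 5.58 and 5.56 at Tbx2. The Tbx4 peak was thus close to the Tbx5 peak in WT and close to the Tbx2 peak in Hox13-/-. Over all peaks of each locus, the median WT level per kb was 6.75 at Tbx3, 6.69 at Tbx4, 6.51 at Tbx2 and 6.43 at Tbx5, against 6.75 over all peaks.

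**Figure D4:**
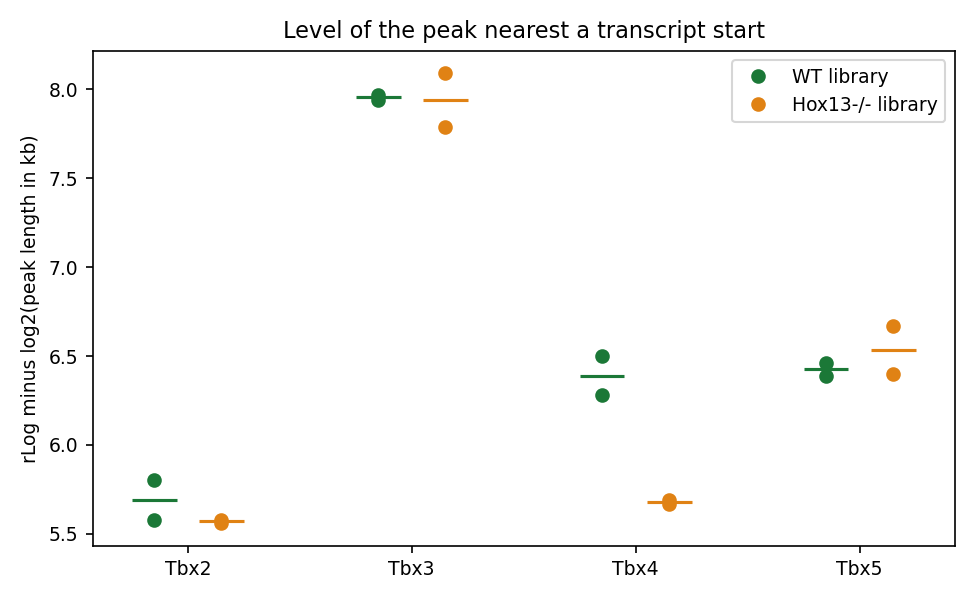
Level per length (rLog minus log2 of the peak length in kb, vertical axis) of the peak nearest to an annotated transcript start of each gene, with a point for each library and a line for the mean of the genotype. The Tbx3 peak is the highest in all 4 libraries, and at Tbx4 both WT libraries lie clear of both Hox13-/- libraries. Only the Tbx3 peak was found by the peak caller in all 4 libraries.

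Among 12426 genes with a start-site peak, those whose rLog over the 4 libraries was nearest to that of Tbx3 were Hltf and Dnajc5 (Euclidean distance 0.0274 and 0.0981), and nearest to Tbx2 were Mmp9 and Gmip (0.0464 and 0.111). The distance rests on the level as well as on the pattern over the 4 libraries.

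The peaks of the 4 loci were mostly remote from gene starts. Only 10 of 82 (12.2%) lay within 1 kb of any annotated transcript start, against 34.6% of all peaks. The peak caller found 18 (22.0%) in all 4 libraries, against 31.8% of all peaks. It found 4 in both WT libraries only, of which 3 were at Tbx4. In both Hox13-/- libraries only it found 14, of which 6 were at Tbx2, 5 at Tbx5, 2 at Tbx4 and 1 at Tbx3. Of all 61954 peaks, 1848 were found in both WT libraries only and 6937 in both Hox13-/- libraries only, so the excess of the latter was not particular to these loci. Of the 14 higher peaks, 10 were found in both Hox13-/- libraries only, as were 3425 of the 7040 higher peaks of the whole set. The numbers of peaks found in each library moved with this: 42 and 29 of the 82 were found in the WT libraries and 46 and 55 in the Hox13-/- libraries, and over all peaks 38401 and 27241 against 38621 and 45587. The part of library quality in this was not tested.

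HOX13 motif matches within the 200 bp around the midpoint were present in 8 of the 82 peaks (9.76%), against 5.49% of all peaks and 5.15% of the 32851 RefSeq promoters of 300 bp. They were in 1 of 7 lower peaks and in 3 of 14 higher peaks, namely the first 3 higher peaks printed above. Over all peaks, 10.9% of lower and 6.29% of higher peaks held a match in this window. With the whole peak searched these shares were closer, at 719 of 5146 lower and 901 of 7040 higher peaks. The higher peaks were longer, with a median of 396 bp against 315 bp for the lower ones. At the 4 loci, 9 of 82 whole peaks held a match, against 4673 of all 61954 peaks. The T-box core AGGTGTG, searched on both strands of the 200 bp window, was in the window of 3 peaks (3.66%), against 3.65% of all peaks. At Tbx3 -123.4 kb and Tbx5 2.5 kb the match lay outside the peak, which is shorter than the window. These matches describe the letters of the window or the peak and not binding.

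Other genes of the family and of the pathway were read in the same way, each with the peaks within 200 kb of its start. The 12 other T-box genes had 197 peaks, of which 19 were lower (9.64%) and 17 higher (8.63%), with a median difference of -0.09. They included Tbx18 with 4 lower and 4 higher of 20 peaks, Tbx15 with 4 higher of 14 and differences up to 1.25, and Tbx10 with 4 lower of 23. Tbx15 and Tbx18 encode T-box factors of limb and other mesenchyme. The 8 genes that act with Tbx4 and Tbx5 in the limb had 171 peaks, of which 14 were lower (8.19%) and 27 higher (15.8%), with a median difference of 0.02. Fgf10, the outgrowth signal activated by Tbx5, had 1 lower and 2 higher of 15 peaks. Pitx1, which acts upstream of Tbx4 in the hindlimb, had 3 lower and 1 higher of 15, with differences from -0.73 to 0.54. Gli3 and Grem1, of hedgehog and BMP signalling, had 3 lower and 7 higher of 36 peaks and 1 lower and 6 higher of 18. Hand2, a regulator of the posterior limb bud, had 4 lower and 5 higher of 30, Bmp4 2 lower and 2 higher of 17, and Sall4 0 lower and 4 higher of 32. Isl1, a hindlimb regulator, had none called among 8. The shares of both lists can be read against 8.31% lower and 11.4% higher over all peaks, and no difference between the lists was tested.

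The outermost peaks inside the limit of 200 kb, with their differences, were at -190.4 kb for Tbx3 (0.15), 198.5 kb for Tbx5 (0.26), -199.7 kb for Tbx2 (0.03) and 141.9 kb for Tbx4 (0.05). The nearest peaks outside were at -232.0 kb (0.16), 245.8 kb (0.07), -213.2 kb (0.12) and 314.7 kb (-0.34).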

How the data were processed

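ATAC-seq of 4 distal forelimb libraries was used, 2 per genotype, each from 1 embryo. According to the methods and processing notes, the authors used Bowtie2 2.3.1 to align 50 bp paired-end reads to the mm10 build, used SAMtools 1.4.1, called peaks in each library with MACS2 2.1.1.20160309, merged them and quantified the signal with HOMER 4.9.1, and compared the genotypes with DESeq2 through HOMER. Handling of duplicates, blacklisted regions and the Tn5 offset is not given in the sources used here. The values deposited by the authors are rLog, on a log2 scale, for 61954 autosomal peaks, without counts. The table also names the libraries in which each peak was called, which was used, and holds the authors' fold change, p-value and adjusted p-value, which were not.

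The genotypes were compared with limma 3.58.1 in R 4.3.3 (genotype as the only term, variance trend, all peaks, two-sided, Benjamini-Hochberg) after a test on simulated data. The prior degrees of freedom were infinite, so that p depends on a spread pooled over peaks; a permutation of 2 against 2 libraries cannot give a p below 0.333. Gene and transcript starts came from GENCODE M21 and sequences and GC content from GRCm38 with pysam 0.24.0. Of the 4 genes, the RefSeq promoter table gave Tbx4.

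Peaks named were those within 1 kb of a gene start, up to 5 lower and 5 higher per gene by p, the 2 strongest per gene in WT over 1 kb from its start, and those beside the 200 kb limit; others are named for position. Members, lists and rules were chosen with earlier results of these data known.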

Additional observations from a re-analysis of the deposited data

How the results depend on the processing

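With each library left out, the 4 loci had 4 to 6 lower and 6 to 9 higher peaks, in place of 7 and 14; the lone library left in a genotype was assumed to vary like the others. All 7 lower peaks and 10 of the 14 higher ones stayed called under all 3 other scalings, and 2 and 3 without every library in turn. Keeping the upper 50% of peaks by mean level, which drops weak peaks, left 2 and 6. A fold change above 1.5 left 3 and 2, above 2 left 0 and 0, and an adjusted p under 0.01 left 9 higher. The labels give both genotypes replicates 1 and 2 but do not say whether equal numbers pair the embryos. The deviations of equal numbers were unrelated (correlation -0.0106), which cannot settle this. A fit with the replicate number as a block had 7 lower and 14 higher peaks. The median difference per gene stayed small and depended on the setting. At Tbx2 (0.03) it was -0.01 with median centring, 0.07 and -0.15 for the upper 75% and 50% of peaks, -0.03 with a GC correction, with or without the replicate block, and -0.10 within 100 kb. At Tbx3 (0.02) it lay between -0.09 and 0.13 with a library left out. At Tbx4 (-0.01) it was -0.05 with median centring or quantile normalization, -0.04 with cyclic loess or the upper 75%, and -0.03 for the upper 50% or within 100 kb, and -0.06 to -0.02 with a library left out. At Tbx5 (0.06) it was 0.03, 0.08 and 0.08 with the 3 scalings, 0.12 and 0.19 for the upper 75% and 50%, -0.03 with a GC correction, with or without the replicate block, 0.09 with the start of any transcript, and 0.02 to 0.12 with a library left out. Calls were gained at Tbx2 -44.0 kb (-0.41) and Tbx5 -11.8 and -32.4 kb (-0.46 and 0.48) without WT replicate 1, at Tbx5 -32.0 kb (0.48) without WT replicate 2, and at the Tbx2 and Tbx3 peaks named in the text. Among named peaks, signs turned only where no call was made: Tbx2 -199.7 kb (-0.01 with median centring, -0.03 with a GC correction), Tbx3 0.0 kb (0.05 with quantile normalization, 0.08 with cyclic loess, 0.09 with a GC correction, -0.16 to 0.14 with a library left out), Tbx4 30.8 kb (-0.18 to 0.11 with a library left out) and Tbx5 -29.8 kb (-0.12 to 0.01 with a library left out). The cause was not tested. Precision is limited by 2 embryos per genotype and by the unknown depth of each peak.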
